A study of Rattus norvegicus with 4 samples.

Results

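The genes described here make and desaturate fatty acids in rat hippocampal neuron cultures with and without knockdown of Gld2. Named for this purpose were 9 genes: Acly, Acaca and Fasn, which build palmitate, Elovl6 and Elovl5, which lengthen chains, the desaturase genes Scd, Fads1 and Fads2, and Srebf1, a transcription factor of the pathway. A gene was measured where the platform annotation gave a probe set that symbol alone, and where several did, the row was to be selected on the highest mean of the 4 arrays. This gave values for 8 of the 9, among 14497 genes in all. Each of the 8 had 1 probe set, so no choice by level was needed. Srebf1 had only a probe set annotated to Srebf1 and Pemt together, so no value of it is given.

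Gld2 (gene symbol Tent2) is a cytoplasmic poly(A) polymerase, an enzyme that lengthens the tails of selected mRNAs. The cultures were primary hippocampal neurons from rat embryos, 2 given Gld2 shRNA and 2 given scrambled shRNA as controls, and the poly(A) RNA of each, eluted by heat from poly(U) Sepharose, was hybridised to its own array. The labels give no strain, embryonic day, shRNA sequence, vector or time after transduction, nor whether cultures within a group were prepared separately, so the p-values rest on a spread that may be technical in part. Unfractionated RNA was not analysed here, so a change in the amount of a transcript and a change in its recovery with the poly(A) fraction cannot be told apart.

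Fatty acid synthesis runs in the cytosol. ATP citrate lyase makes acetyl-CoA, acetyl-CoA carboxylase turns it into malonyl-CoA, and fatty acid synthase joins these units into palmitate, which elongases lengthen and stearoyl-CoA desaturase converts to monounsaturated fatty acids. A second branch, of the delta-5 and delta-6 desaturases and Elovl5, turns dietary essential fatty acids into long polyunsaturated ones, which are abundant in brain membranes. Transcription of both branches is driven by SREBP-1, the product of Srebf1, a membrane-bound precursor that is carried to the Golgi by Scap, held back by Insig proteins and released by 2 proteases.

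The knockdown was seen in the arrays. Tent2 read 9.50 and 9.35 with Gld2 shRNA and 10.73 and 10.67 in the controls, a log2 difference of -1.28. All values are log2 RMA values, and differences are Gld2 shRNA minus scrambled shRNA. Adjusted p-values are from limma, by the Benjamini-Hochberg method over 14497 genes (limma adjusted p below), and the threshold was 0.05, which 349 genes passed as lower and 245 as higher. Those counts were 1367 and 558 with each array centred on its median, 246 and 266 with the length trend removed, 50 and 127 with all probe sets tested, 0 and 1 without moderation, 1406 and 1283 when Gld2 shRNA replicate 1 was omitted and 99 and 172 when its replicate 2 was, and 3 and 82 or 7 and 85 when scrambled shRNA replicate 1 or 2 was. The medians of the arrays lay between 8.41 and 8.48. Gld2 shRNA replicate 2 stood farther from the controls, with median absolute differences of 0.155 and 0.140, than replicate 1, with 0.0998 and 0.0919. With 4 arrays the precision is limited.

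Scd was the 1 gene of the 8 that fell, and none rose. Scd encodes stearoyl-CoA desaturase, the enzyme that places the first double bond in stearate and palmitate. Of all 14497 genes, 2.41% were called lower and 1.69% higher. At an unadjusted p under 0.05, 4 of the 8 were lower and 0 higher, against 16.2% of all genes that were lower by that count. These genes were chosen with results of this comparison known, the fall of Scd among them, so their counts and p-values describe where each gene stood in the fit over all genes and are no independent test of the pathway.

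Scd (probe set 10730349) read 10.57 and 10.48 with Gld2 shRNA, against 11.44 and 11.38 with scrambled shRNA. Both knockdown cultures lay far below both controls, with a gap many times the distance between cultures of the same group. Mean values were 10.53 ± 0.0581 with Gld2 shRNA and 11.41 ± 0.0450 with scrambled shRNA (SD, n = 2 each). The log2 difference was -0.88 (standard error 0.0660, 95% interval -1.04 to -0.72, limma adjusted p = 0.00216). Scd thus stood at 54.2% of the control level, the 9th lowest difference of all genes tested. The call did not hold without scrambled shRNA replicate 1, where the difference was -0.85 at an adjusted p = 0.0519, and without moderation across genes (adjusted p = 0.221), both in limma. Over the 14 alternatives the difference ran from -0.92 to -0.82 and the limma adjusted p from 5.33e-11 to 0.221. That lowest adjusted p came with each array centred on its median, where the standard error of Scd was larger, at 0.0928.

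**Figure D1:**
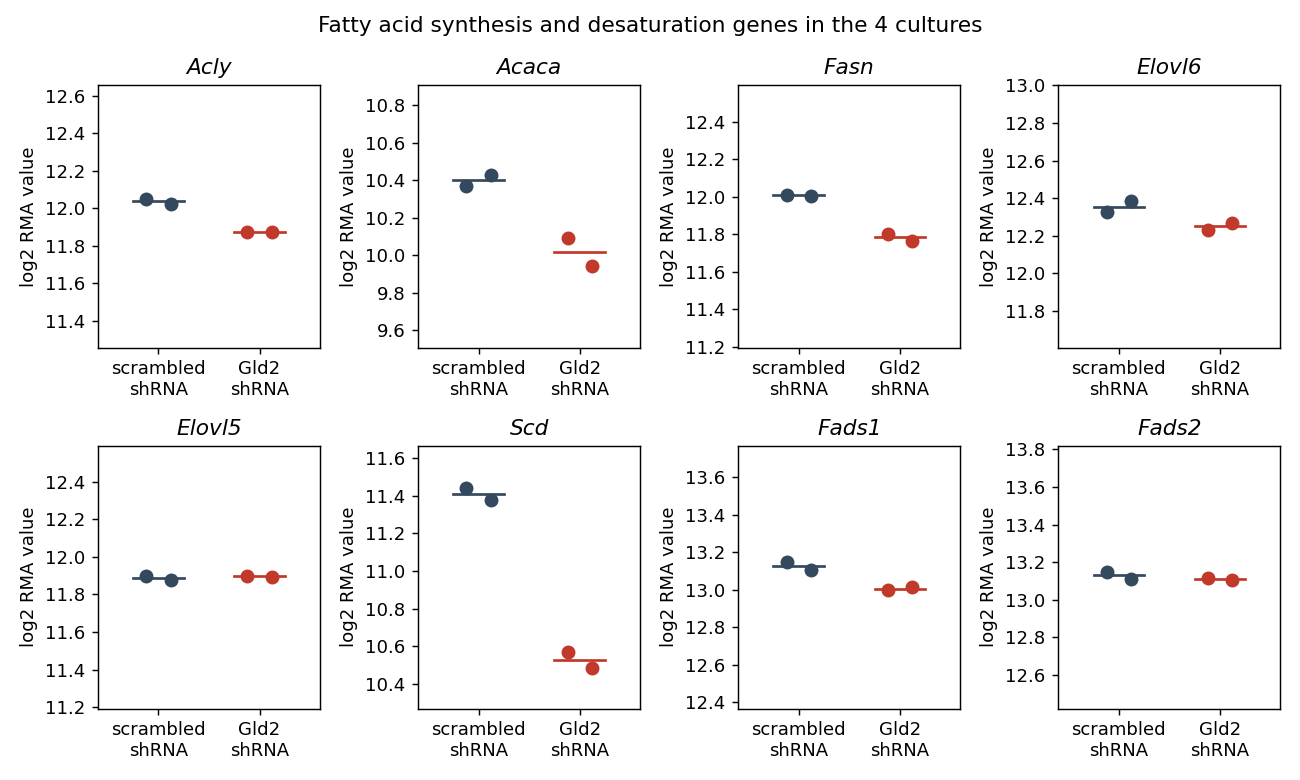
Log2 RMA values (vertical axes, each spanning the same range of log2 units) of the 8 measured genes in the 2 scrambled shRNA cultures (dark points) and the 2 Gld2 shRNA cultures (red points), with the group mean as a bar. Scd shows the widest separation, from 11.44 and 11.38 down to 10.57 and 10.48, while the groups of Elovl5 and Fads2 overlap.

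Scd2, a paralog of Scd on the same chromosome with 1 gene (Scd4, not measured here) between them in the RefSeq table of GRCr8, did not pass the test. Scd2 read 13.38 and 13.33 with Gld2 shRNA and 13.42 and 13.38 in the controls, a log2 difference of -0.047 (95% interval -0.20 to 0.10, limma adjusted p = 0.664). The log2 ratio of Scd to Scd2 was -2.81 and -2.84 with Gld2 shRNA and -1.98 and -2.00 with scrambled shRNA, so the probe sets of the paralogs changed unequally. Whether signal of one paralog reaches the probe set of the other was not tested. Because these paralogs stood apart in the data, the 250 bases before their annotated starts are shown, from RefSeq on GRCr8, at chr1:253231732-253231981 on the minus strand for Scd and at chr1:253118127-253118376 on the plus strand for Scd2, each written 5′ to 3′ in the direction of its gene. Capitals mark CCAAT, the core of the site bound by NF-Y, a factor that acts together with SREBPs. Another transcript model of Scd starts farther upstream, so the start used in these neurons is not known from the table.
Scd: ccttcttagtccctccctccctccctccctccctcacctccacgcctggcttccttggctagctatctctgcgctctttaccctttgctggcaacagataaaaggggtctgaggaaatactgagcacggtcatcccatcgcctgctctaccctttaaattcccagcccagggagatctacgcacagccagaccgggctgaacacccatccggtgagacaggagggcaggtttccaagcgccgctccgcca
Scd2: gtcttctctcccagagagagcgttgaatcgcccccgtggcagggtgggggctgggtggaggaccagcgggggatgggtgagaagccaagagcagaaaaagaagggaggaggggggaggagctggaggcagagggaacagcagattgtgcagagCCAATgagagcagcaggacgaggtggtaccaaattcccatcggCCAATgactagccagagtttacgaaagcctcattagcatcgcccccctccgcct

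CCAAT was found at 2 places before Scd2 and at 0 before Scd. On either strand, 34.0% of all 33469 such windows in the table held it. The letters GGGCGG, the core of an Sp1 site, were in neither window and in 30.5% of all windows. TCACNCCAC, a common form of the sterol regulatory element, was in neither and in 0.974% of all. Of the other measured genes, Acly, Fads1, Fads2 and Elovl5 had an entry in the table. CCAAT occurred before Acly, Fads1 and Elovl5 but not before Fads2, GGGCGG before Acly, Fads1 and Fads2 but not before Elovl5, and TCACNCCAC before none of these 4. CACGTG, an E-box, was in the window of Elovl5 and not in those of the other 5 genes, beside 5.59% of all windows. Motifs were searched on both strands, and the matches are a description of these letters in these windows.

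The genes that build palmitate, Acly, Acaca and Fasn, each stood lower in both knockdown cultures than in both controls, but none passed the threshold. Acaca, which encodes acetyl-CoA carboxylase 1, the committed step of the pathway, came nearest. It read 10.09 and 9.94 with Gld2 shRNA and 10.37 and 10.43 in the controls. The knockdown cultures differed more from each other than the controls did, and replicate 2 was the lower one. The log2 difference was -0.38 (SE 0.0746, 95% interval -0.57 to -0.20), or 76.7% of the control level, with a limma adjusted p of 0.0513. Acaca passed in 5 of 14 alternatives, among them the fit without Gld2 shRNA replicate 1 (-0.46, adjusted p = 0.0224 in limma). It is also among the longest genes, with a genomic span of 262262 bp in the top decile, where 122 of 1447 genes were called lower and the median difference was -0.12. After removal of the trend with gene length, the difference of Acaca was -0.24 (limma adjusted p = 0.102).

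Fasn encodes fatty acid synthase, the multifunctional enzyme that produces palmitate. Its values were 11.80 and 11.77 with Gld2 shRNA and 12.01 and 12.01 with scrambled shRNA. The cultures of a group lay close together and the groups did not overlap. The log2 difference was -0.22 (SE 0.0596, 95% interval -0.37 to -0.078), 85.6% of the control level, with a limma adjusted p of 0.0969. Fasn passed when genes below the 25th percentile of level (adjusted p = 0.0458) or below the median (0.0175) were omitted and with a prior variance dependent on level (0.00152), all in limma.

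Acly, the ATP citrate lyase gene, read 11.88 in each Gld2 shRNA culture and 12.05 and 12.03 in the controls. This is a small step with little spread in either group. The log2 difference was -0.16 (SE 0.0592, 95% interval -0.31 to -0.018), 89.3% of the control level, with a limma adjusted p of 0.165.

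The elongases differed little between the groups. Elovl6, which lengthens palmitate to stearate, the substrate of Scd, stood at 12.23 and 12.27 with Gld2 shRNA and at 12.33 and 12.38 with scrambled shRNA. The groups did not overlap, but the log2 difference of -0.10 had a 95% interval from -0.25 to 0.049 (limma adjusted p = 0.339). With the length trend removed the difference of Elovl6 was -0.0010. Elovl5, which lengthens polyunsaturated chains, stood at 11.90 and 11.89 with Gld2 shRNA and at 11.90 and 11.88 with scrambled shRNA. The groups overlapped, and the log2 difference was 0.0068 with a 95% interval from -0.14 to 0.15 (limma adjusted p = 0.951).

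The desaturases of the polyunsaturated branch did not pass either. Fads1, the delta-5 desaturase gene, stood at 13.00 and 13.01 with Gld2 shRNA and at 13.15 and 13.11 with scrambled shRNA. Both knockdown cultures were below both controls, at 91.8% of their level, with a log2 difference of -0.12 and a 95% interval from -0.27 to 0.024 (limma adjusted p = 0.257). Fads2, the delta-6 desaturase gene, stood at 13.11 and 13.10 with Gld2 shRNA and at 13.15 and 13.11 with scrambled shRNA. Its groups overlapped, with a log2 difference of -0.021 and a 95% interval from -0.17 to 0.13 (limma adjusted p = 0.848).

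**Figure D2:**
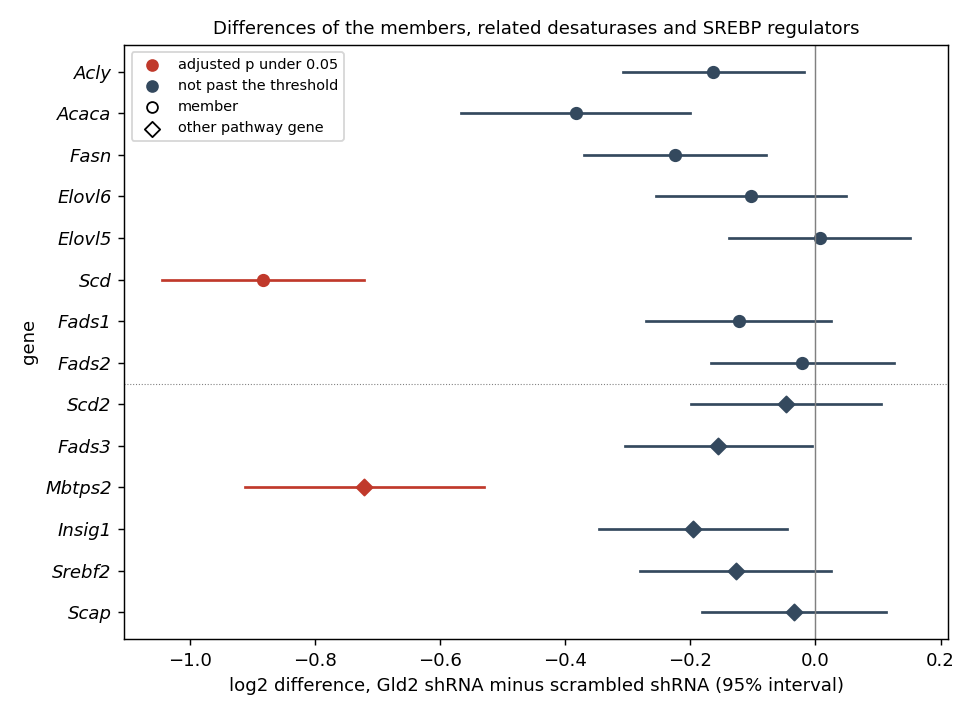
Log2 difference, Gld2 shRNA minus scrambled shRNA (horizontal axis), with its 95% interval from limma, for the 8 measured genes (circles) and for related desaturase genes and regulators of SREBP processing (diamonds), red where the adjusted p was under 0.05. Scd at -0.88 and Mbtps2 at -0.72 are the genes in red, and the interval of Scd, from -1.04 to -0.72, lies wholly below that of Acaca, from -0.57 to -0.20.

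Among the 8 genes the differences ran from -0.88 for Scd to 0.0068 for Elovl5, with a median of -0.14 against -0.015 over all genes tested. Of the 8, 7 had a difference below 0, as did 53.8% of all genes, and 6 had both knockdown cultures below both controls, as did 34.5% of all genes, while 0 had both above, as did 24.0% of all genes. Of the 8, the genes of saturated and monounsaturated chains (Scd, Acaca, Fasn, Acly and Elovl6) were at 54.2% to 93.1% of the control level. Those of the polyunsaturated branch (Fads1, Fads2 and Elovl5) were at 91.8% to 100.5%, so the ranges overlap. Scd2, the paralog of Scd outside the 8, was at 96.8%. Whether the branches differ was not tested. Scd moved more than each of the others of the 8 within the same arrays. The log2 ratio of Scd to Fasn was -1.23 and -1.28 with Gld2 shRNA and -0.57 and -0.63 with scrambled shRNA, a change of -0.66. For Acaca, the nearest in size, the log2 ratio of Scd to Acaca changed by -0.50, and for Elovl5 the ratio changed by -0.89. In all 7 ratios the groups did not overlap. Each ratio holds the same Scd values, whose fall was known when the genes were chosen, so this is no separate evidence. The ratios were not tested further.

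All 8 genes had mean levels above the median of the genes measured, so none was a dim probe set. Scd lay in decile 9 of level, where 39 of 1450 genes were called lower. Acaca lay in decile 7, with 72 of 1449 called lower, and the others of the 8 in decile 10, with 10 of 1449. Whether level bears on the contrast of Scd with the others was not tested. How many passed differed between the settings, and the cause was not tested. With the level-dependent prior variance, 5 of the 8 were lower (Scd, Acaca, Fasn, Acly and Fads1), where 1611 of all genes were called lower in place of 349. Omitting genes below the median level, 4 were lower (Scd, Acaca, Fasn and Acly), where 1287 of the 7249 genes left were called lower.

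**Figure D3:**
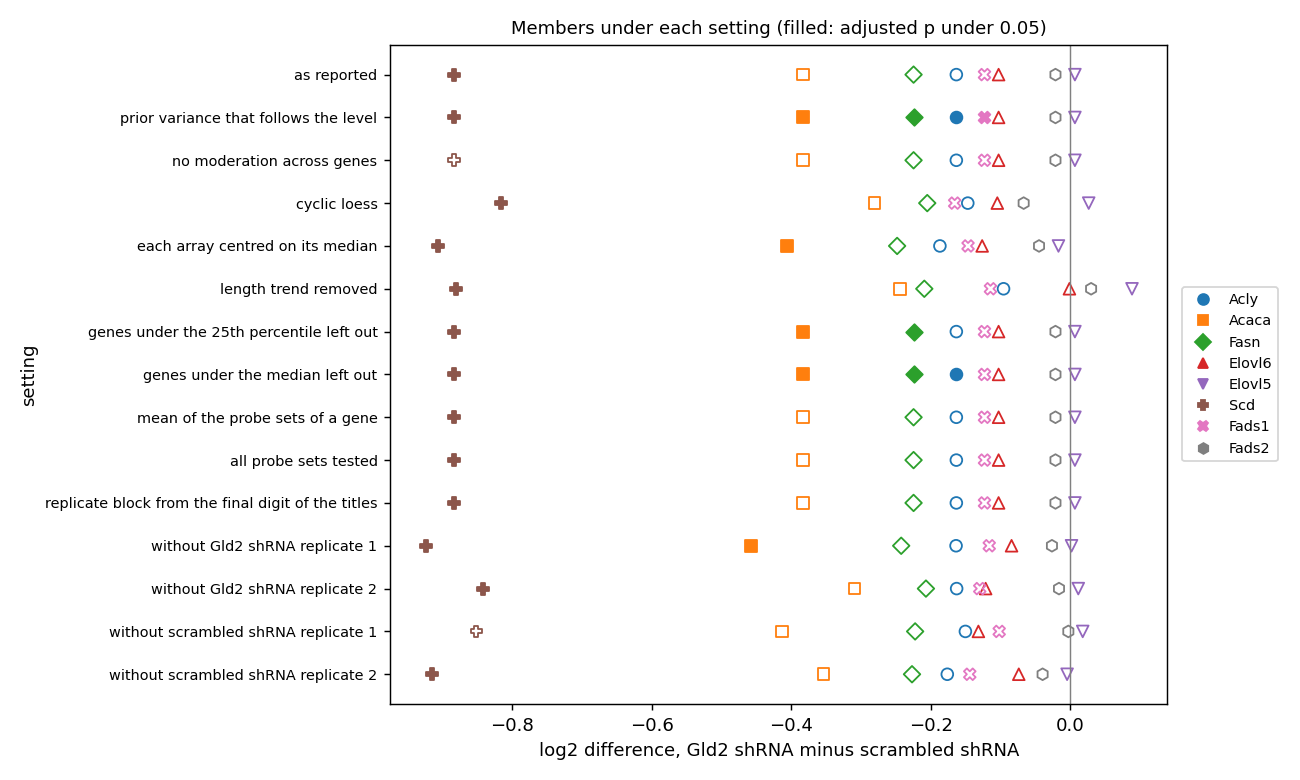
Log2 difference (horizontal axis) of each of the 8 genes under the fit as reported and the 14 alternatives (rows), filled where the adjusted p by limma was under 0.05. Scd stays between -0.92 and -0.82 in every row and is open without moderation and without scrambled shRNA replicate 1, while Acaca, Fasn, Acly and Fads1 are filled in 5, 3, 2 and 1 of the alternatives.

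Mbtps2 was the 1 of 19 measured regulators of lipid synthesis that fell, with 0 rising and 18 not passing, beside 2.41% of all genes lower and 1.69% higher. It encodes the site-2 protease, the second of the enzymes that cut SREBP precursors to release the active factor. Mbtps2 read 10.31 and 10.13 with Gld2 shRNA and 10.94 and 10.93 in the controls. Both knockdown cultures were below both controls, replicate 2 the lower. The log2 difference was -0.72 (SE 0.0779, 95% interval -0.91 to -0.53), 60.7% of the control level, with a limma adjusted p of 0.00965. The call did not hold when scrambled shRNA replicate 1 or 2 was omitted (limma adjusted p = 0.140 and 0.125) or without moderation (0.267), with differences from -0.73 to -0.72.

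The other parts of the SREBP machinery did not pass. Insig1, which retains the precursor in the endoplasmic reticulum and is itself a target of SREBPs, had a log2 difference of -0.20 (limma adjusted p = 0.129). Srebf2, the gene of SREBP-2, which drives sterol synthesis, had -0.13, and Scap, the escort of the precursors, -0.034. Mbtps1, the gene of the site-1 protease, had -0.16 (limma adjusted p = 0.181), and Insig2 had -0.14 (limma adjusted p = 0.258). The catalytic subunits of AMP-activated kinase, which phosphorylates and inhibits acetyl-CoA carboxylase, stood lower without passing, Prkaa2 at -0.34 (adjusted p = 0.0812) and Prkaa1 at -0.21 (adjusted p = 0.126), adjusted in limma. The median of the regulator list was -0.075, with 13 of 19 values below 0, beside 53.8% of all genes. At an unadjusted p under 0.05 in limma, 6 of the 19, Mbtps2 included, were lower and 0 higher (16.2% and 9.24% of all genes). Both knockdown cultures lay below both controls for 12 and above for 2 (34.5% and 24.0% of all genes).

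Beyond the 8 genes, 83 of 95 listed genes of lipid metabolism were measured, and 3 fell, 0 rose and 80 did not pass. The share lower, beside 2.41% of all genes, came from Mbtps2, Cpt1b and Ppara. Omitting scrambled shRNA replicate 1 or 2 left 0 lower, and omitting Gld2 shRNA replicate 1 gave 12. At an unadjusted p under 0.05, 19 of the 83 were lower and 4 higher, beside 16.2% and 9.24% of all genes, and the linear model without moderation called 0 in either direction. The median was -0.047, with 53 of 83 below 0, beside 53.8% of all genes.

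Genes of fatty acid oxidation, the route that breaks down what the synthesis genes make, held 2 of these falls. Cpt1b, an isoform of the carnitine palmitoyltransferase that admits fatty acids to mitochondria, stood at 8.35 and 8.45 with Gld2 shRNA and at 8.80 and 8.91 with scrambled shRNA (log2 difference -0.46, limma adjusted p = 0.0326). Ppara, a nuclear receptor that activates oxidation genes, stood at 7.89 and 7.74 with Gld2 shRNA and at 8.22 and 8.21 with scrambled shRNA (log2 difference -0.39, limma adjusted p = 0.0465). Both genes lay below the median level, and both calls were lost without either scrambled shRNA culture, Cpt1b at adjusted p = 0.208 and 0.259 and Ppara at 0.334 and 0.281 in limma. Ppara was also lost without Gld2 shRNA replicate 2 (-0.32, adjusted p = 0.103) and with the length trend removed (-0.31, adjusted p = 0.0611), and both were lost when all probe sets were tested (adjusted p = 0.0794 for Cpt1b and 0.0986 for Ppara), all in limma. The other 14 of 16 measured oxidation genes did not pass, among them Cpt1a, the isoform of liver and many other tissues, at -0.19, and the list median was -0.0034. Cpt1a was at -0.27 without Gld2 shRNA replicate 1 (limma adjusted p = 0.0496), at -0.12 without its replicate 2 and at -0.11 with cyclic loess, and it passed with the level-dependent prior variance (0.0408).

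The remaining lists had 0 members past the threshold in limma in either direction. Their counts at an unadjusted p under 0.05 stand beside 16.2% of all genes lower and 9.24% higher. Of 9 measured genes that supply acetyl-CoA, NADPH and malonyl-CoA, 2 were lower at an unadjusted p under 0.05, Oxsm, the ketoacyl synthase of mitochondrial fatty acid synthesis, at -0.40 and Acss2, which makes acetyl-CoA from acetate, at -0.22, and Mlycd, which removes malonyl-CoA, was at 0.17. Oxsm passed in 6 of 14 alternatives, among them the fit with the replicate block (limma adjusted p = 0.0386, against 0.0631 without it). Of 5 other desaturase genes, Fads3 at -0.16 was the 1 with an unadjusted p under 0.05, and Fads6 and Degs2 were at -0.095 and 0.10. Of 5 other genes of elongation, Elovl3 at 0.33 and Hacd4 at 0.22 had an unadjusted p under 0.05, both in decile 2 of level, and Elovl2 was at 0.043. Elovl3 ran from 0.19 to 0.47 over the fits without 1 culture, and passed without Gld2 shRNA replicate 1 (limma adjusted p = 0.0220), as did Hacd4 (0.0452), and Elovl3 also with median centring (0.0219). Of 13 genes that activate or bind fatty acids, 3 were lower and 1 higher by that count, with Acot7, an acyl-CoA thioesterase of brain, at -0.22, Acsl6 at -0.17, and Fabp7, a fatty acid binding protein of glia, at 0.19. Of 16 genes of glycerolipid synthesis, 4 were lower and 1 higher by that count. Pcyt1a, a key enzyme of phosphatidylcholine synthesis, was at -0.31, Gpam, the first acyltransferase, at -0.23 and Lpin1, a phosphatidate phosphatase, at -0.26.

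**Figure D4:**
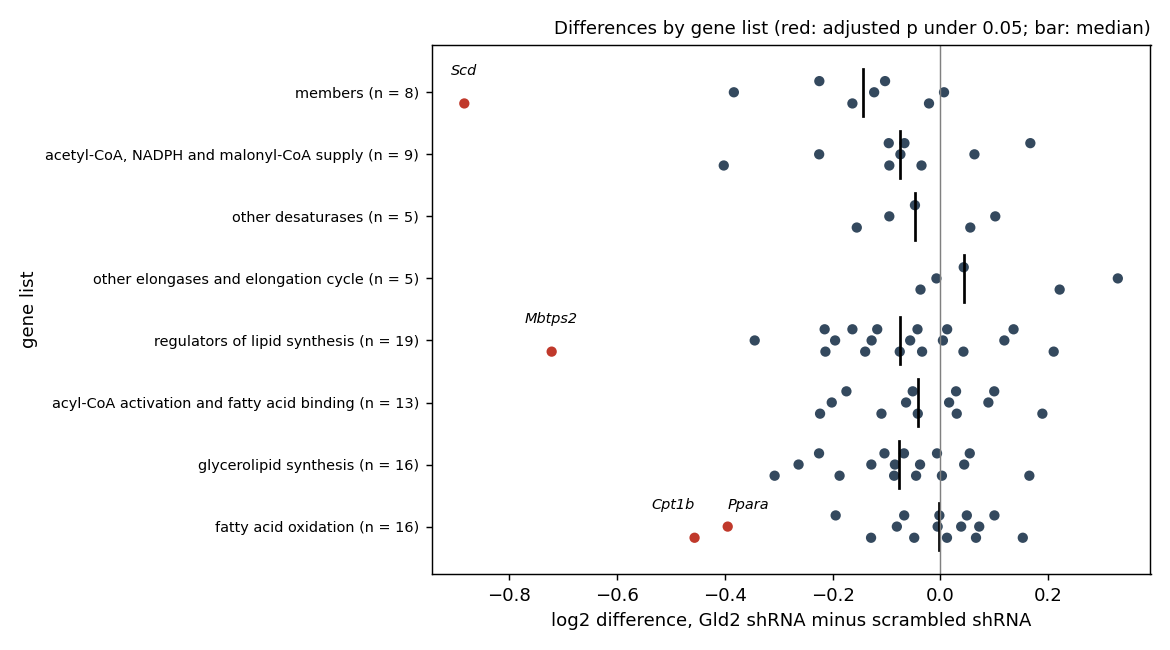
Log2 differences, Gld2 shRNA minus scrambled shRNA (horizontal axis), of the 8 genes (labelled members) and of each other list of lipid metabolism (rows), a point per gene, red where the adjusted p by limma was under 0.05, with the list median as a bar. Scd, Mbtps2, Cpt1b and Ppara are the points in red, and the list medians lie between -0.14 and 0.043.

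The genes whose 4 values, centred on the mean of each gene, lay nearest to those of Scd by Euclidean distance were Slc15a2, a peptide transporter (distance 0.0408, log2 difference -0.91), Ttc9 (0.0426, log2 difference -0.92) and Zdhhc21, a protein palmitoyltransferase (0.0546, log2 difference -0.85). With 4 arrays in 2 groups this likeness reflects mostly the size of the group difference.

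Markers of the cell types that such cultures can hold were compared beside these values, since in bulk samples fewer cells of a type and less RNA per cell cannot be told apart. Neuron markers were all 12 above the median level of the array with mean log2 levels of 12.53 and 12.52 with Gld2 shRNA and 12.61 and 12.58 in the controls, and 1 of 12, Dcx (-0.38), fell. Over all genes, 2.41% were called lower and 1.69% higher. Of the 12 neuron markers, 2 were lower and 0 higher at an unadjusted p under 0.05 (16.2% and 9.24% of all genes). Below 0 were 10 of them (53.8% of all genes). Both knockdown cultures lay below both controls for 6 and above for 0 (34.5% and 24.0% of all genes). Astrocyte markers had mean levels of 11.80 and 11.76 against 11.81 and 11.82. Of 9 measured, Gja1 (-0.39) fell, and 4 were below 0. At an unadjusted p under 0.05, 2 were lower and 0 higher, beside the same shares of all genes. Oligodendrocyte lineage markers, relevant because myelinating cells make much lipid, had mean levels of 8.53 and 8.59 against 8.47 and 8.54. Of 12 measured, Cnp (0.54) rose, and Mbp was at -0.29 (limma adjusted p = 0.0798). Of this list 5 were below 0 and 7 above, with a median of 0.024. At an unadjusted p under 0.05, 1 was lower and 1 higher, and 10 of the 12 lay below the median level. Microglia markers had 0 of 12 past the threshold, 3 higher at an unadjusted p under 0.05 (9.24% of all genes) and 11 above 0 (46.2% of all genes), with mean levels of 7.65 and 7.77 against 7.55 and 7.56, all 12 below the median level. Both knockdown cultures lay above both controls for 9 of the 12 microglia markers and below for 0 (24.0% and 34.5% of all genes). Of these 12, 11 lay in deciles 2 to 4 of level, where the median differences of all genes were 0.084, 0.10 and 0.053. Endothelial markers had mean levels of 7.54 and 7.65 against 7.54 and 7.52, and dividing cell markers 7.53 and 7.48 against 7.53 and 7.48. In either list 0 passed the threshold. At an unadjusted p under 0.05, 0 endothelial markers were lower and 2 higher, and 1 dividing cell marker was lower and 1 higher. The calls of Dcx, Gja1 and Cnp were lost without either scrambled shRNA culture, those of Dcx and Gja1 also without Gld2 shRNA replicate 2, that of Dcx with the length trend removed (-0.27, limma adjusted p = 0.0790), and those of all 3 when all probe sets were tested and without moderation. The part of these cell types in the fall of Scd was not tested.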

How the data were processed

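Poly(A) RNA of 4 cultures was measured on whole-transcript arrays. Per the submitters' processing notes, the deposited log2 values came from RMA and affy. The sources used here give no settings or versions for that step, and the log2 scale was inferred from the range of the values, 3.23 to 14.3. Of 28826 probe sets, 15209 had 1 gene symbol, 306 several and 13311 none, which gave 14497 genes. Gene identifiers of 15178 probe sets matched the RefSeq table of GRCr8, with 0 changes of symbol. The groups were compared by lmFit and eBayes (limma 3.58.1, R 4.3.3) in a two-sided test, adjusted by Benjamini-Hochberg over all genes, on 2 residual degrees of freedom plus 3.96 from moderation. Detection calls, scan dates and batches were not analysed here.

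The members and lists were chosen with earlier results of these data known. Named are the members, the 3 genes of each lipid list with the smallest p, all list genes past the threshold, Tent2, Scd2, Srebf2 and the 3 genes nearest to Scd. Insig1, Insig2, Scap, Mbtps1, Mbp, Scd4 and Pemt were added after the values were seen. Alternatives were a level-dependent prior variance (eBayes trend), no moderation, cyclic loess, median centring, removal of the trend with genomic length (lowess, span 0.3), filters on dim genes, averaging the probe sets of a gene, testing all probe sets, the last digit of each title as a replicate block, and omission of each culture in turn, which took the spread from the other group.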

Additional observations from a re-analysis of the deposited data

How the results depend on the processing

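Of the 8 genes, 1 was called lower as reported. This count was 5 with the level-dependent prior variance, 4 and 3 when genes below the median or the 25th percentile were omitted, 2 with each array centred on its median and 0 without moderation, and it ran from 0 to 2 over the fits without 1 culture. The count of 3 lower among other lipid genes was 17, 11, 5, 7 and 0 in the same order, 1 with all probe sets tested, and from 0 to 12 over the fits without 1 culture. The 0 higher among them became 3 with the level-dependent prior, 1 with genes below the median omitted, 1 with median centring, and from 0 to 2 without 1 culture. Of all genes, 349 of 14497 were called lower as reported. That count was 1611 with the level-dependent prior, 1367 with median centring and 0 without moderation. It was 1287 of 7249 with genes below the median omitted and 949 of 10873 with those below the 25th percentile omitted. These 2 filters left 68 and 77 of the other lipid genes. Beyond the fewer genes or samples that some of these fits hold, the cause was not tested. No member was called higher in any alternative. Signs turned only for 2 members near 0 that were not called. Elovl5 was -0.017 with median centring and ran from -0.0044 to 0.018 without 1 culture, and Fads2 was 0.030 with the length trend removed. The replicate block from the title digits called 1 member and 4 other lipid genes lower, Oxsm being the addition. Deviations from the group mean of cultures with the same digit correlated at 0.143 over genes. With 2 cultures a group, both pairs must give this same value. It is thus 1 figure and does not settle whether the digits pair the cultures. Signal over background was not measured here.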
